A study of Saccharomyces cerevisiae with 104 samples.

Results

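Aminoacyl-tRNA synthetases join each amino acid to its tRNA and so supply the ribosome with charged tRNAs. In the budding yeast Saccharomyces cerevisiae most amino acids are served by one synthetase for the cytosol and a separate one for the mitochondrial matrix, and both kinds are encoded in the nucleus. A few genes supply both compartments from a single locus, because different start sites give a protein with or without a mitochondrial targeting sequence. The mitochondrial enzymes serve only the few proteins made inside the organelle, among them subunits of the respiratory chain.

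The genes described here are 31 of the 7108 genes in the deposited tables, taken by gene name. The cytosolic class holds 19 genes, namely 18 synthetase genes and ARC1, whose product binds tRNA and 2 synthetases but charges no tRNA itself. The mitochondrial class holds 12 genes, namely the MS-prefixed genes MSD1, MSE1, MSF1, MSK1, MSM1, MSR1, MSW1 and MSY1 with NAM2, ISM1, DIA4 and SLM5. The names group genes by function, and they were chosen with earlier results of these data known. Of the cytosolic class, ALA1, GRS1, HTS1 and VAS1 are the genes counted here as dually located.

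The series holds 100 ChIP-exo samples of yeast transcription proteins, not analysed here, and 4 RNA-seq libraries of total RNA, called libraries 1 to 4 as names only. The design text asks how RNA polymerase II stalls after acute stress by hydrogen peroxide. A single set of growth and treatment texts (25 °C, 0.3 mM H2O2 for 6 min, then 1.0% formaldehyde) is attached to all samples, with no strain, no untreated sample and no replicate named for RNA-seq, and the extraction text describes chromatin immunoprecipitation. No library could therefore be placed in a condition, each library is described on its own, and no value has a replicate error or a test.

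Values are TPM, a length-scaled abundance that sums to 1000000 in each library with ribosomal RNA included. Of this total, 46.9, 12.2, 21.2 and 5.77% belonged to the 5989 nuclear protein-coding genes in libraries 1, 2, 3 and 4, and series of 4 values below follow the same order. The median protein-coding gene stood at 40.2, 7.50, 17.6 and 3.59 TPM. A lower TPM can thus come from less of a transcript or from more of other RNA, which cannot be told apart here, and levels are also given as multiples of the median protein-coding gene. Aligned bases over all genes came to 302.3, 218, 236 and 189.6 megabases. Mean read depth over the cytosolic genes had a median of 61.7, 23.7, 32.5 and 11.5, and over the mitochondrial genes of 10.3, 2.16, 6.84 and 1.59, so the mitochondrial values in libraries 2 and 4 rest on the fewest reads. No member was listed at 0, and read counts, hence sampling intervals, are unknown.

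Transcripts of the cytosolic class were far more abundant than those of the mitochondrial class in each of the 4 libraries. The median cytosolic gene stood at 194, 47.9, 70.02 and 18.3 TPM and the median mitochondrial gene at 32.6, 4.38, 14.7 and 2.53 TPM. The ratio of these medians was 5.96, 10.95, 4.75 and 7.24. The summed TPM of the cytosolic class was 8.37, 14.7, 7.73 and 11.4 times that of the mitochondrial class. Both ratios were highest in library 2 and lowest in library 3, and a factor common to all genes of a library, such as its share of ribosomal RNA, cancels in both. On the log2(TPM + 1) scale the cytosolic median exceeded the mitochondrial one by 2.54, 3.19, 2.18 and 2.45. That scale compresses low values, and on it library 4 lies below library 1, whereas the plain ratio of medians is larger in library 4.

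The 2 classes also sat at different places among all protein-coding genes. The cytosolic median was 4.83, 6.39, 3.98 and 5.10 times the median protein-coding gene, and the mitochondrial median 0.810, 0.583, 0.837 and 0.704 times. Ranked among protein-coding genes, the median cytosolic member lay at percentile 93.4, 93.3, 90.8 and 91.9, and the median mitochondrial member at percentile 41.9, 28.6, 42.9 and 35.8. All 19 cytosolic genes exceeded the median protein-coding gene in libraries 2 and 4, and 18 did in libraries 1 and 3, the exception being FRS2. Of the 12 mitochondrial genes, 4, 2, 2 and 2 exceeded it. The classes overlapped at a single cytosolic gene: FRS2 lay below the highest mitochondrial gene in libraries 1, 3 and 4, and in library 2 all 19 cytosolic genes lay above all 12 mitochondrial ones. The cytosolic class held 0.826, 0.728, 0.724 and 0.616% of protein-coding TPM and the mitochondrial class 0.0987, 0.0494, 0.0937 and 0.0540%.

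**Figure D1:**
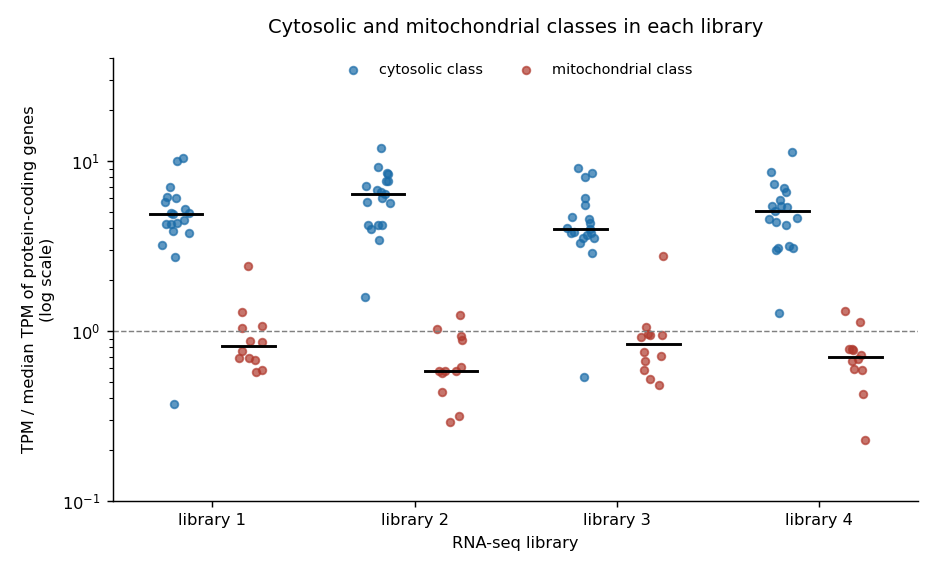
Each point is 1 gene, plotted as its TPM divided by the median TPM of nuclear protein-coding genes in the same library (log axis), with the cytosolic class (19 genes) left of the mitochondrial class (12 genes) and a bar at each class median. Cytosolic medians lie between 3.98 and 6.39 and mitochondrial medians between 0.583 and 0.837, and the low cytosolic point in each library is FRS2.

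KRS1 and ILS1 were the 2 highest cytosolic genes in libraries 1 and 3, and KRS1 also led in libraries 2 and 4, where other genes also exceeded ILS1. KRS1 (YDR037W, chromosome 4, 525440 to 527215, plus strand, build sacCer3), the lysyl enzyme, had 399, 88.6, 159 and 40.7 TPM. It was the highest of the 31 genes in libraries 2, 3 and 4. ILS1 (YBL076C, chromosome 2, 81043 to 84261, minus strand), the isoleucyl enzyme, had 418, 62.5, 149 and 23.4 TPM and was the highest in library 1. An unnamed reading frame, YBL077W, overlaps ILS1 by 286 bases on the other strand and was listed at 170.2, 22.01, 84.2 and 15.4 TPM, and with the strandedness of the libraries unknown the 2 cannot be separated with certainty. THS1, the threonyl enzyme, had 282, 69.3, 106 and 26.3 TPM and was above ILS1 in libraries 2 and 4.

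Mes1, Gus1 and Arc1 form a complex in which Arc1 brings tRNA to the 2 synthetases. ARC1 (YGL105W, chromosome 7, 307437 to 308567) had 247, 63.2, 141 and 30.8 TPM, more than either partner in each library. GUS1, the glutamyl enzyme, had 173, 53.2, 66.5 and 19.4 TPM. MES1, the methionyl enzyme, had 170.1, 29.9, 61.9 and 11.01 TPM. The ratio of GUS1 to MES1 was 1.017, 1.78, 1.07 and 1.76, so GUS1 stood nearly level with MES1 in libraries 1 and 3 and above it in libraries 2 and 4. The ratio of ARC1 to MES1 was 1.45, 2.11, 2.28 and 2.80. MES1 is overlapped by YGR265W over 206 bases on the other strand, listed at 41.7, 10.9, 18.98 and 5.78 TPM.

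Phenylalanyl-tRNA synthetase is built from 2 kinds of subunit in equal number, and their transcripts stood far apart. FRS1 (YLR060W, chromosome 12, 260979 to 262766, plus strand), for the beta subunit, had 198, 42.1, 81.8 and 15.1 TPM. FRS2 (YFL022C, chromosome 6, 93499 to 95010, minus strand), for the alpha subunit, had 14.9, 11.8, 9.44 and 4.56 TPM. FRS1 was thus 13.3, 3.57, 8.66 and 3.31 times FRS2. FRS2 was the lowest cytosolic gene in each library; the next lowest stood at 108.6, 25.6, 50.4 and 10.7 TPM. It ranked at percentile 20.1, 68.1, 27.9 and 60.1 of protein-coding genes, against 93.7, 92.5, 93.04 and 89.4 for FRS1. No other gene of the tables overlaps either one. The read depth over FRS2 was 4.72, 5.82, 4.38 and 2.86, and over FRS1 62.9, 20.8, 37.9 and 9.46. The TPM of FRS2 spanned 3.26-fold over the libraries, the narrowest span among the 31 genes, whereas the median cytosolic gene spanned 10.7-fold.

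The dually located genes stood around the class median. ALA1, for alanine, had 243, 42.8, 96.4 and 16.2 TPM. VAS1, for valine, had 231, 47.9, 76.2 and 18.3 TPM. GRS1, for glycine, had 194, 50.4, 62.01 and 19.2 TPM. HTS1, for histidine, was lower, with 128, 31.3, 57.6 and 10.998 TPM. The median of the 4 was 213, 45.4, 69.1 and 17.3 TPM, close to the 176, 47.2, 68.6 and 17.9 TPM of the other 14 cytosolic synthetase genes. The tables give 1 value per gene, so the forms for the 2 compartments are not separated. GRS1 and ALA1 are each overlapped by a short unnamed reading frame, over 159 and 81 bases, listed at no more than 1.34 TPM in any library.

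The other cytosolic enzymes all lay below KRS1 and ILS1, with the exception of SES1 over ILS1 in library 4. CDC60, for leucine, had 199, 45.5, 64.3 and 15.8 TPM. GLN4, for glutamine, had 209.6, 25.6, 80.2 and 11.3 TPM and spanned 18.6-fold, the widest span of the cytosolic class. An unnamed reading frame, YOR169C, overlaps GLN4 by 357 bases on the other strand and was listed at 48.6, 11.1, 26.7 and 4.68 TPM. SES1, for serine, had 179.9, 56.8, 71.05 and 24.7 TPM. DED81, for asparagine, had 171, 56.9, 70.02 and 21.02 TPM. SES1 and DED81 were close to each other in each library except library 4. DPS1, for aspartate, had 151, 48.9, 67.1 and 19.5 TPM. WRS1, for tryptophan, had 155, 31.5, 65.8 and 10.7 TPM. TYS1, for tyrosine, had 108.6, 31.4, 50.4 and 16.5 TPM. WRS1 was above TYS1 in libraries 1 and 3, level with it in library 2 and below it in library 4.

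MSK1 stood out at the top of the mitochondrial class. MSK1 (YNL073W, chromosome 14, 488386 to 490116, plus strand), for lysine, had 96.5, 9.35, 48.4 and 4.70 TPM, and no other mitochondrial gene was higher in any of the 4 libraries. It was 2.40, 1.25, 2.75 and 1.31 times the median protein-coding gene. Lysine thus had the highest mitochondrial gene and, in 3 of the 4 libraries, the highest cytosolic one. NAM2, for leucine, whose product is also needed to splice mitochondrial introns, had 52.1, 6.58, 16.9 and 2.46 TPM. MSR1, for arginine, had 43.1, 4.37, 16.7 and 2.77 TPM. MSD1, for aspartate, had 41.9, 4.34, 18.5 and 2.80 TPM. All 3 exceeded the median protein-coding gene in library 1, and outside library 1 only MSD1 in library 3 did.

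The isoleucyl gene was the lowest of the mitochondrial class in all libraries but library 1. ISM1 (YPL040C, chromosome 16, 475993 to 479001, minus strand) had 27.8, 2.19, 8.46 and 0.818 TPM and was the lowest of the 31 genes in libraries 2, 3 and 4. Its read depth was 8.83, 1.08, 3.92 and 0.513 and that of library 4 was the lowest among the 31 genes in any library. By aligned bases in library 4, ISM1 (1545) and MSE1 (1539) rest on about equally little sequence. In library 1 FRS2 was the lowest of the 31 genes, and MSE1, DIA4 and MSW1 were also below ISM1. MSK1 exceeded ISM1 by 3.47, 4.28, 5.72 and 5.75 times. ISM1 spanned 34.01-fold over the libraries, the widest span of the 31 genes.

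The remaining mitochondrial genes clustered below the median protein-coding gene, with 2 exceptions. MSM1, for methionine, had 34.5, 3.28, 16.3 and 2.40 TPM. MSY1, for tyrosine, had 34.96, 7.003, 16.6 and 2.15 TPM. MSF1, for phenylalanine, which encodes a single-chain enzyme, had 30.6, 4.24, 11.6 and 2.60 TPM. In libraries 1 and 3 MSF1 was therefore higher than the cytosolic subunit gene FRS2. SLM5, for asparagine, had 27.8, 7.70, 9.19 and 2.81 TPM, and in library 2 it was one of the exceptions. MSW1, for tryptophan, had 27.002, 4.59, 10.3 and 4.03 TPM, and in library 4 it was the other. DIA4, for serine, had 23.6, 4.38, 13.2 and 2.11 TPM, and MSE1, for glutamate, had 23.03, 2.36, 12.6 and 1.52 TPM. Both stayed below the median protein-coding gene in all 4 libraries, MSE1 at percentile 30.5, 13.99, 37.1 and 21.7.

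**Figure D2:**
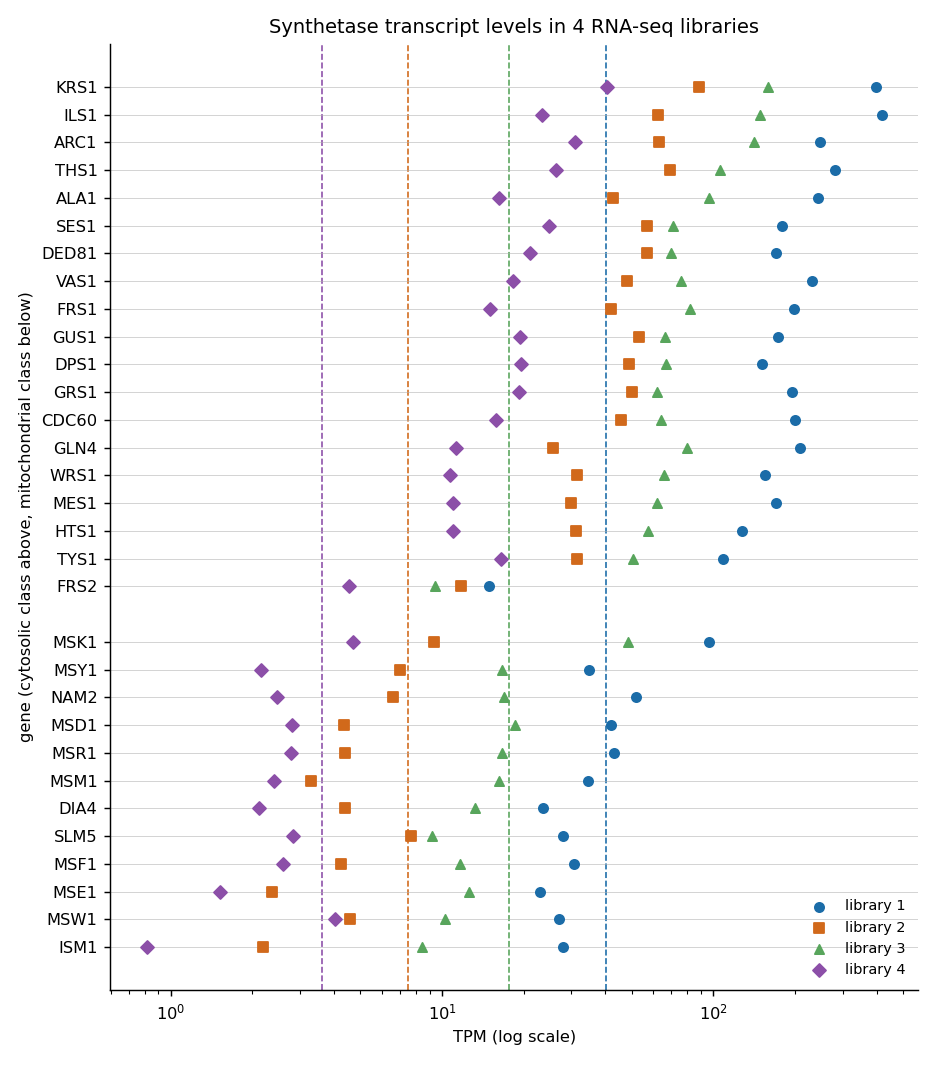
Each row is 1 gene with its TPM in libraries 1 to 4 (log axis), ordered by median TPM within the cytosolic class (above) and the mitochondrial class (below), and dashed lines give the median protein-coding gene of the library in the same colour. TPM ran in the order library 1, 3, 2, 4 for all 12 mitochondrial genes and for 18 of 19 cytosolic genes, the exception being FRS2, and KRS1 and ISM1 have the highest and lowest median TPM.

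Among the members, enzymes for the same amino acid were compared directly for 11 amino acids. This gave 12 ratios because the cytosolic phenylalanyl enzyme has 2 genes that share the partner MSF1. Synthetase genes outside the members, such as MST1, were not paired. The cytosolic gene was higher in 11, 12, 11 and 12 of the 12 ratios, and the median ratio was 5.34, 9.31, 4.55 and 7.21. The exception in libraries 1 and 3 was FRS2 over MSF1, with ratios of 0.485, 2.78, 0.812 and 1.75. Isoleucine gave the highest ratio in each library, with ILS1 at 15.03, 28.6, 17.6 and 28.6 times ISM1. The ratio of GUS1 to MSE1 was 7.51, 22.5, 5.29 and 12.7, a 4.26-fold span over the libraries. DED81 over SLM5 was the steadiest, at 6.14, 7.39, 7.62 and 7.47. Library 2 gave the highest ratio for 9 of the 12 comparisons, and library 3 gave the lowest for 6. WRS1 over MSW1 was at 5.75, 6.87, 6.39 and 2.65, with its lowest value in library 4, as FRS1 over MSF1 also had.

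**Figure D3:**
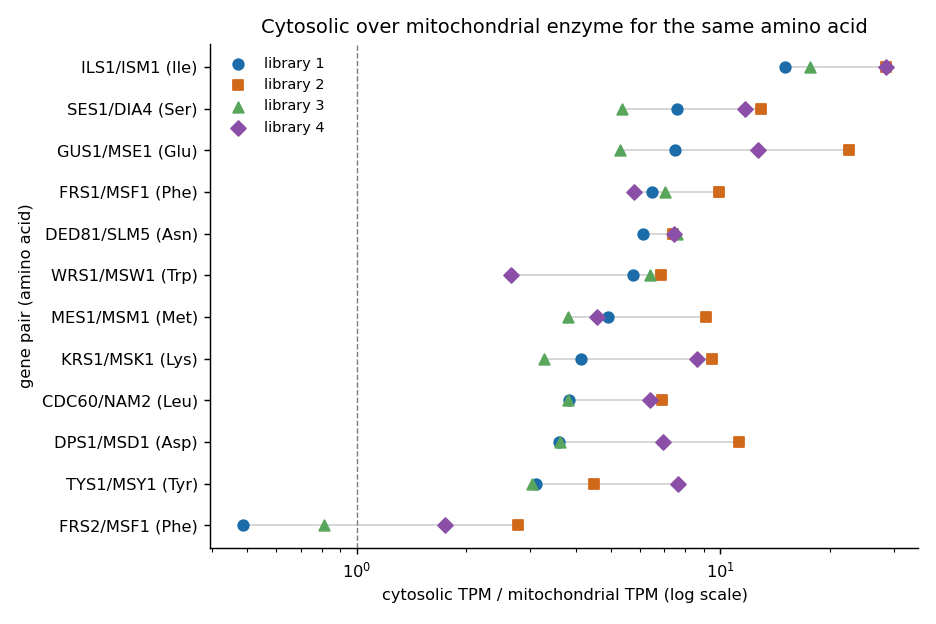
Each row is 1 cytosolic gene over the mitochondrial gene for the same amino acid, and each marker is the ratio of their TPM in 1 library (log axis, dashed line at equal levels). All ratios are above 1 except FRS2/MSF1 in libraries 1 and 3 (0.485 and 0.812), and ILS1/ISM1 is highest in each library.

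Synthetases fall into 2 unrelated structural classes, I and II, whose medians lay much closer together than those of the compartments. Cytosolic class I genes (n = 8) had a median of 186, 38.5, 66.2 and 16.1 TPM and cytosolic class II genes (n = 10) one of 187, 49.6, 70.5 and 19.4 TPM. Mitochondrial class I genes (n = 7) had a median of 34.5, 4.37, 16.3 and 2.40 TPM and mitochondrial class II genes (n = 5) one of 30.6, 4.38, 13.2 and 2.80 TPM. Gene spans were alike, with a median of 1788 bases in the cytosolic class (1131 for ARC1 to 3315 for VAS1) and 1669.5 bases in the mitochondrial class (1140 for MSW1 to 3009 for ISM1), both longer than the 1203 bases of the median protein-coding gene. The order of the 19 cytosolic genes was most alike between libraries 2 and 4 (Spearman correlation across genes 0.946) and between libraries 1 and 3 (0.891), and lay between 0.598 and 0.681 for the other pairs. For the 12 mitochondrial genes the correlations were 0.636 and 0.790 for those 2 pairs and 0.315 to 0.476 for the others. These points share libraries and depth, and genes are not replicates.

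Differences between libraries were then set against the whole table. For each pair of libraries, a gene's difference in log2(TPM + 1) was taken less the median difference of the 6400 genes whose median TPM reached 1, which include all 31 members. Those median differences were 2.15 for library 1 minus 2, 1.12 for 1 minus 3, 2.97 for 1 minus 4, -1.08 for 2 minus 3, 0.86 for 2 minus 4 and 1.89 for 3 minus 4. A gene was counted as apart where it lay at least 2-fold from this median gene. Pairs that share a library are not independent of each other.

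The 2 classes stood on opposite sides of the median gene when library 2 was set against library 3 and against library 4. For library 2 minus library 3, the cytosolic median was 0.41, with 15 of 19 genes above the median gene, and the mitochondrial median was -0.41, with 2 of 12 above it. Both of these medians lay within the interquartile range of all genes tested, -0.47 to 0.61. Under a pseudocount of 5 both values were nearer 0, at 0.14 and -0.18. Only FRS2 (1.37) and MSK1 (-1.18) were at least 2-fold apart, 2 of 31 members, against 15.9% of all genes tested higher and 7.03% lower, or 23% in both directions. SLM5 (0.85) was the highest of the mitochondrial genes, MSE1 (-0.93) had the second lowest value after MSK1, and GLN4 (-0.53) was the lowest of the cytosolic genes.

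For library 2 minus library 4, all 19 cytosolic genes lay above the median gene, between 0.03 for TYS1 and 0.62 for WRS1, with a median of 0.49, next to 2947 of 5667 protein-coding genes tested. CDC60 stood at 0.61. The cytosolic median was 0.66 with a pseudocount of 5 and 0.36 with median-ratio scaling. How many cytosolic genes lay above the median gene was not recomputed under these settings, and TYS1 was close to it. Mitochondrial genes had a median of -0.20 and 3 of 12 above the median gene, with MSW1 (-0.71) and MSM1 (-0.53) lowest. The interquartile range of all genes tested was -0.29 to 0.27, which held the mitochondrial median but not the cytosolic one. None of the 31 members was at least 2-fold apart, against 2.77% of all genes tested higher and 4.2% lower, or 6.97% in both directions.

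The classes also stood on opposite sides of the median gene between libraries 1 and 2. The cytosolic median for library 1 minus library 2 was -0.14, with 8 of 19 genes above the median gene, and the mitochondrial median was 0.68, with 11 of 12 above it. The interquartile range of all genes tested was -0.76 to 0.58, which held the cytosolic median but not the mitochondrial one. The cytosolic sign was not stable, since a pseudocount of 5 gave 0.26. At least 2-fold apart were MSK1 (1.09), ISM1 (1.03) and FRS2 (-1.84), or 3 of 31 members, against 9.92% of all genes tested higher and 19.5% lower, or 29.4% in both directions. DED81 (-0.58) was the next lowest. Over the 5667 protein-coding genes the median was 0.06.

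Both class medians were small in log2 units between libraries 1 and 3, where the whole table also differed little. The interquartile range of all genes tested was -0.31 to 0.22, against -0.76 to 0.58 for library 1 minus library 2. The cytosolic median for library 1 minus library 3 was 0.20, with 16 of 19 genes above the median gene. It was thus near the 0.22 at the upper end of the range for this pair. The mitochondrial median was 0.10, with 7 of 12 above it, and was -0.0027 where genes had to reach a median TPM of 10. The extremes were GRS1 (0.51) and CDC60 (0.50) on one side and FRS2 (-0.52) and DIA4 (-0.33) on the other. No member was at least 2-fold apart, against 0.5% of all genes tested higher and 6.02% lower, or 6.52% in both directions.

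Against library 4, both library 1 and library 3 showed the mitochondrial class above the median gene. Both class medians nevertheless lay within the interquartile range of all genes tested, -0.76 to 0.60 for library 1 and -0.59 to 0.48 for library 3. The cytosolic median for library 1 minus library 4 was 0.40 and the mitochondrial one 0.47, and the cytosolic value was between 0.01 and 0.94 under other pseudocounts, units and scalings. ILS1 (1.13), GLN4 (1.13), MSK1 (1.12), ISM1 (1.01) and FRS2 (-1.46) were at least 2-fold apart, 5 of 31 members, against 11% of all genes tested higher and 19.3% lower, or 30.4% in both directions, and MSW1 stood at -0.50. The cytosolic median for library 3 minus library 4 was 0.08, which turned negative under 5 of the alternatives, and the mitochondrial median was 0.46. Only MSK1 (1.22) was at least 2-fold apart, 1 of 31 members, against 6.77% of all genes tested higher and 14.7% lower, or 21.5% in both directions, and FRS2 (-0.98), GLN4 (0.83), ILS1 (0.73) and MSW1 (-0.72) were the next furthest.

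FRS2 was the member furthest below the median gene for library 1 set against each of the other 3 libraries, and the furthest above it for library 2 minus library 3. MSK1 was the mitochondrial gene furthest above the median gene in library 1 against libraries 2 and 4 and in library 3 against library 4. Gene length moved with these differences. Across the 31 members the Spearman correlation of gene span with the difference was 0.703 for library 1 minus library 4 and 0.672 for library 1 minus library 3, and across the 5667 protein-coding genes tested it was 0.524 and 0.628. For library 2 minus library 3 it was -0.082 over the members, -0.193 within the cytosolic class, -0.434 within the mitochondrial class and -0.249 over protein-coding genes. Library 2 minus library 4 gave 0.295 over the members and 0.119 over protein-coding genes. In library 1 minus library 2 it was 0.346 over the members, 0.586 within the cytosolic class, 0.690 within the mitochondrial class and 0.476 over protein-coding genes. The part of gene length in these results was not tested.

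**Figure D4:**
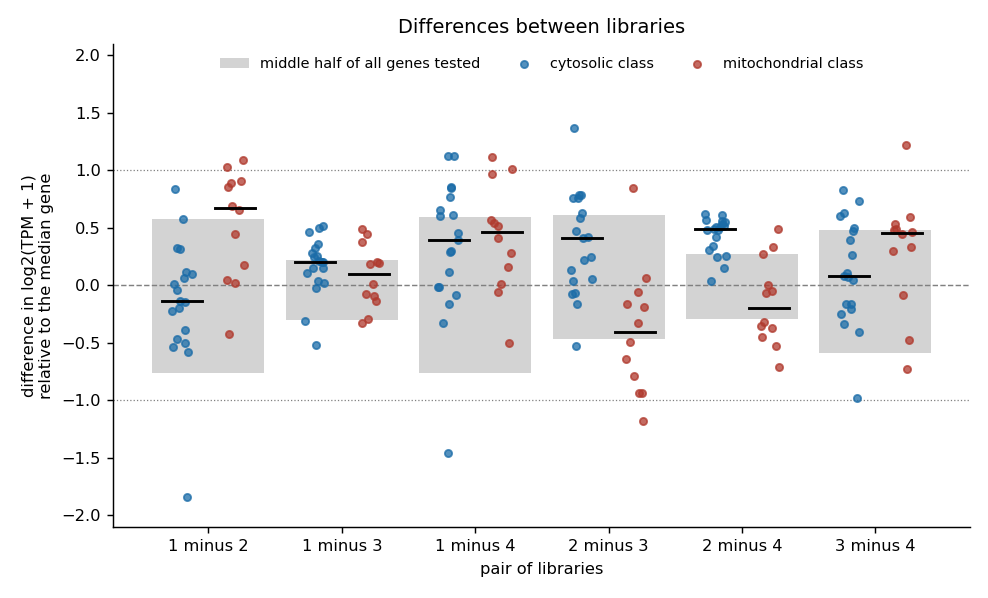
Each point is 1 gene's difference in log2(TPM + 1) for a pair of libraries (first minus second) less the median difference of the 6400 genes tested, with the cytosolic class left of the mitochondrial class, bars at the class medians, grey boxes over the interquartile range of all genes tested and dotted lines at 2-fold. Class medians lie on opposite sides of 0 for 1 minus 2 (-0.14 and 0.68), 2 minus 3 (0.41 and -0.41) and 2 minus 4 (0.49 and -0.20), and the cytosolic sign for 1 minus 2 turned with a pseudocount of 5. Of these medians only 0.68 and 0.49 lie outside the grey boxes.

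Of the synthetase genes outside the 31 members, 6 were measured. YDR341C had 179, 29.3, 69.04 and 9.73 TPM, YHR020W had 127, 32.7, 47.9 and 10.2 TPM, and YNL247W, CRS1 in RefSeq, had 118, 19.7, 44.2 and 8.58 TPM. The mitochondrial threonyl gene MST1 had 27.9, 6.78, 10.7 and 1.55 TPM and AIM10 had 20.9, 3.44, 8.29 and 1.66 TPM. GRS2, the diverged duplicate of GRS1, had 26.6, 3.99, 10.8 and 2.39 TPM, and GRS1 exceeded it by 7.30, 12.6, 5.76 and 8.06 times. Of these 6 genes, YDR341C was at least 2-fold above the median gene for library 1 minus library 4 (1.10), or 1 of 6 where 11% of all genes tested were higher and 30.4% were apart in both directions. None of the 6 was 2-fold apart in the other pairs, where the share of all genes tested was between 6.52 and 29.4%.

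Mitochondria lack a glutaminyl-tRNA synthetase, and an amidotransferase of 3 subunits converts glutamate already bound to the tRNA. Its genes GTF1, PET112 and HER2 had 18.02, 6.87, 9.35 and 3.28 TPM, 35.2, 6.15, 16.9 and 2.35 TPM, and 17.1, 2.96, 7.42 and 0.869 TPM. FMT1, which formylates the initiator methionyl-tRNA, had 16.8, 1.21, 9.20 and 1.26 TPM. These 4 had median levels of 17.5, 4.55, 9.27 and 1.80 TPM, below the mitochondrial synthetase median in libraries 1, 3 and 4. For library 2 minus library 3 their median was -0.13, and FMT1 (-1.13) was the 1 of 4 at least 2-fold lower, against 7.03% of all genes tested. The read depth over FMT1 was only 0.596 in library 2, against 4.27 in library 3, so that value rests on very little sequence.

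The general amino acid control responds to uncharged tRNA through the kinase Gcn2 and the transcription factor Gcn4. GCN4 had 137, 51.2, 52.98 and 17.6 TPM, and GCN2 had 56.6, 5.33, 15.99 and 2.50 TPM. GCN1 had 72.7, 10.5, 27.2 and 4.37 TPM, GCN20 had 205, 26.2, 76.8 and 11.8 TPM, and GCN3, a subunit of the factor that reloads eIF2, had 95.98, 15.3, 45.1 and 7.46 TPM. For library 2 minus library 3, GCN4 (1.03) lay at least 2-fold above the median gene, where 15.9% of all genes did, and the other 4 lay between -0.43 and -0.22. GCN2 was at least 2-fold above the median gene for library 1 minus library 2 (1.04) and minus library 4 (1.07), and GCN20 for the second of these (1.04), where 9.92 and 11% of all genes tested were.

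Set beside the related groups, the cytosolic class lay near the level of the cytosolic translation factors and the mitochondrial class lay below the mitochondrial ribosomal proteins. The 38 translation factors had a median of 206, 41.2, 80.7 and 18.9 TPM, led by TEF2 with 1848, 1079, 854 and 413 TPM and TEF1 with 1735, 1024, 806 and 392 TPM, near-identical copies whose reads cannot be assigned with certainty. The 54 mitochondrial ribosomal protein genes had a median of 58.4, 10.8, 28.2 and 6.74 TPM. Among them MRPS12 had 112, 25.8, 75.1 and 14.3 TPM and MRPL33 had 77.1, 19.8, 69.01 and 18.8 TPM. The 8 mitochondrial translation factors, at 26.1, 4.77, 11.3 and 2.90 TPM, were nearer the mitochondrial synthetases. Of these, the elongation factor genes TUF1 and MEF1 had 156, 37.6, 73.7 and 16.2 TPM and 95.6, 11.7, 45.1 and 6.35 TPM.

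The direction of the class medians was shared by the translation factors and the mitochondrial ribosomal proteins for library 2 minus library 3. There the cytosolic synthetases stood at 0.41 and the cytosolic translation factors at 0.32, and the mitochondrial synthetases at -0.41, the mitochondrial ribosomal proteins at -0.30 and the mitochondrial translation factors at -0.27. The 6 other synthetase genes had a median of -0.02 in that pair, with 3 of 6 above the median gene. The mitochondrial MST1 stood at 0.49 and AIM10 at 0.01. YHR020W stood at 0.54, YNL247W at -0.05, YDR341C at -0.13 and GRS2 at -0.16. For library 2 minus library 4, MST1 stood at 0.75 and AIM10 at -0.12. In library 1 minus library 2 the mitochondrial synthetases stood at 0.68, the mitochondrial translation factors at 0.33 and the mitochondrial ribosomal proteins at 0.05, with 11 of 12, 5 of 8 and 33 of 54 genes above the median gene. In library 2 minus library 3, 8 of 38 cytosolic translation factors were at least 2-fold higher, and 1 of 19 cytosolic members was, against 15.9% of all genes tested. No difference between these lists was tested.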

How the data were processed

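The data were 4 RNA-seq tables of total RNA, each with 7108 genes. Each deposited table gives a coverage signal, the mean depth over the gene. In the authors' tables FPKM equals coverage times 1 fixed factor per library, and the authors' TPM adds up to 1000000 with ribosomal RNA counted. The submitters' processing notes name sacCer3, BWA, Picard and SAMtools without separating RNA-seq from ChIP-exo. For RNA-seq, the aligner, abundance estimator and strandedness are not given in the sources used here.

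Members were matched by gene name, all 31 in each table. Members and lists were chosen with earlier results of these data known. RefSeq (R64) matched 6011 identifiers, gave the protein-coding class and had the same start for all 31 members. Gene roles are background knowledge. Coverage times gene span gave aligned bases. Among genes with fewer than 500 aligned bases, 55.3 to 61.5% of these products lay within 0.01 of a whole number, so whole reads could not be recovered.

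All samples were left unassigned, no library pair was a comparison of conditions, and no p-value was computed. Differences used log2(TPM + 1), a scale that shrinks the contrast between low values, and only genes reaching a median TPM of 1 (6400, with 708 left out). Every member is named, as are the extremes of each pair, all genes of 3 related lists and the 2 most abundant of each other list. Shifts put into simulated data were recovered before use, but only in genes away from the lowest TPM and with a wide tolerance. That check says little of small class medians or of low values. Alternatives were pseudocounts of 0.1 and 5, other filters, FPKM, TPM rescaled without 375 structural and 55 mitochondrial RNA entries, 2 other centrings, other memberships, a 1.5-fold threshold and each library left out. Medians count as moved beyond 1 SD across libraries or pairs, and counts beyond a 1.5-fold change. The software was matplotlib 3.10.9, scipy 1.17.1, numpy 2.4.6 and pandas 2.3.3 under Python 3.11.15.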

Additional observations from a re-analysis of the deposited data

How the results depend on the processing

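Of 232 recomputed values, 189 kept their direction and stayed within the allowed change, 36 moved and 7 changed sign. Every cytosolic minus mitochondrial level stayed positive. Leaving out a library can change the other pairs only through the filter on median TPM, so those values say little of stability. All of them are among the 189. So are 6 mitochondrial medians without ARC1 and the 4 dually located genes, which could not change because only cytosolic genes were dropped. With a pseudocount of 5 the cytosolic minus mitochondrial level was 2.50 in library 2 and 1.63 in library 4. For members reaching a median TPM of 10 it was 2.69 in library 2.

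The cytosolic median for library 3 minus library 4 turned to -0.17 with a pseudocount of 0.1, -0.12 with FPKM, -0.22 with rescaled TPM, -0.13 for genes reaching a median TPM of 10 and -0.19 with median-ratio scaling, and moved to 0.56 with a pseudocount of 5. For library 1 minus library 4 it was 0.080, 0.14, 0.013, 0.14, 0.054 and 0.94 under the same settings. With a pseudocount of 5 it was 0.26 for library 1 minus library 2 and 0.14 for library 2 minus library 3. The mitochondrial median for library 1 minus library 3 was -0.0027 under the higher filter. The cause of these changes was not tested.

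Counts of members at least 2-fold apart were small and moved easily. The share of all genes tested was computed for the main setting only. The counts below therefore cannot be read as more or fewer than among all genes. For library 1 minus library 4 the count was 3 with a pseudocount of 0.1 and with FPKM, 2 with rescaled TPM and with median-ratio scaling, 1 under the higher filter and 10 with a pseudocount of 5. For library 2 minus library 3 it was 4 with a pseudocount of 0.1, FPKM, rescaled TPM and no filter, and 1 with a pseudocount of 5. For library 3 minus library 4 it was 3 with either pseudocount and 2 with FPKM, rescaled TPM, the higher filter, protein-coding centring and median-ratio scaling. For library 1 minus library 2 it was 5 with no filter and 1 with the higher filter. At 1.5-fold the counts were 9 for library 1 minus 2, 12 for 1 minus 4, 13 for 2 minus 3, 3 for 2 minus 4 and 8 for 3 minus 4. Depth limits the mitochondrial class most: in libraries 2 and 4 all 12 of its genes had a read depth under 10. No paired analysis was possible because the labels give no groups or replicate numbers for RNA-seq.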

Other observations

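In the list of genes that move or splice tRNA, 2 exporter genes were high in library 1. LOS1, the nuclear exporter of tRNA, had 100.7 TPM in library 1, 5.64 in library 2, 31.2 in library 3 and 2.35 in library 4. MSN5, an exporter of tRNA and proteins, had 191, 13.1, 55.6 and 5.65 TPM. Set against the median gene, LOS1 stood at 1.79 and MSN5 at 1.63 for library 1 minus library 2, and at 1.95 and 1.88 for library 1 minus library 4. The list of 9 such genes had a median of 0.38 for library 1 minus library 2, with 3 of 9 at least 2-fold higher, where 9.92% of all genes tested were. LOS1 and MSN5 were not the extremes there, since another gene of the list, not named here, stood at 3.74. For library 2 minus library 3 the lowest value of the list was -3.47, against -1.20 for LOS1 and -0.93 for MSN5. That median was below the 0.68 of the mitochondrial synthetases. For library 1 minus library 4 the list stood at 0.33, with 5 of 9 above the median gene, and the cytosolic and mitochondrial synthetases at 0.40 and 0.47. LOS1 and MSN5 were named for their high level within that list. No test was made.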
